A study of Mus musculus with 2 samples.

Results

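Complex I genes were followed in nuclei of regenerating mouse liver, through all rows of the count table whose symbol starts with Nduf. There were 47 such genes among 32286, and all 47 had at least 20 UMIs (unique molecular identifiers, counted molecules) over both libraries. They comprised 39 subunit genes (Ndufa, Ndufb, Ndufc, Ndufs and Ndufv) and 8 assembly factor genes (Ndufaf). The rule used the symbol and total counts only, not any difference between libraries, but it was chosen with earlier results of these data known. The study compared 1 liver library labelled wild-type with 1 labelled Cox10-/-. Mice with a floxed Cox10 allele had received an AAV8 vector carrying GFP or Cre, and 70% of the liver was removed 4 weeks later. The labels do not state which vector each of the 2 samples received, the promoter driving Cre, the number of mice pooled or their age. They also disagree on time, with a protocol that gives 4 days from hepatectomy to dissection and a sample field that gives 4 weeks. Livers were perfused and digested, so nuclei came from a strained cell suspension.

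Complex I, NADH:ubiquinone oxidoreductase, is the entry point for electrons from NADH into the respiratory chain. Its matrix arm holds the flavin and iron-sulfur clusters that carry electrons to ubiquinone, and its membrane arm pumps protons. The catalytic core is shared with bacteria, with part of it encoded in mitochondrial DNA, while the accessory subunits surround it. Assembly factors bind intermediates or modify subunits and leave before the complex is finished. Cox10 makes the heme A precursor of cytochrome c oxidase, complex IV, a different complex of the same chain.

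There were 5448 nuclei with 17703804 UMIs from wild-type and 5167 nuclei with 14476400 UMIs from Cox10-/- liver, and the libraries shared 7 barcodes. A limit of 10% mitochondrially encoded UMIs left 1542 wild-type nuclei (28.3%) and 3128 Cox10-/- nuclei (60.5%). Clusters with hepatocyte marker RNA held 1502 wild-type and 1169 Cox10-/- nuclei, called hepatocyte-like here, and all 14 hepatocyte markers were detected in both. Their summed counts were 7120311 and 4167829 UMIs, with a median of 4415 and 2663 UMIs per nucleus. Different clusters held them: clusters 0, 3 and 6 in the wild-type library and clusters 4, 5, 8 and 15 in the Cox10-/- library. Acute-phase genes (Saa1, Saa2, Orm2) were among the leading genes of cluster 5 and cell division genes (Ckap2, Prc1) of the 13 nuclei of cluster 15. Cluster 5 was shallow, with 451 Cox10-/- nuclei at a median of 1128 UMIs, so the results between libraries are given with and without it. Marker RNA of other cell types was higher in the Cox10-/- hepatocyte-like sum for 4 of 5 lists, as CPM (counts-per-million of the summed UMIs). Stellate markers stood at 33.8 and 193 CPM, myeloid markers at 5.76 and 67.9, endothelial markers at 29.6 and 64.1, cholangiocyte markers at 85.2 and 165, and lymphoid markers at 264 and 211 CPM. Detected members of these lists were 10 then 11 of 11, 10 then 11 of 12, 11 then 11 of 11, 4 then 6 of 8, and 6 then 6 of 15. Their part in the results below was not tested. With 1 library per group there is no replicate error: every interval is a 95% counting interval, covers counting error only, and compares these libraries rather than the genotypes.

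Promoters are printed for 4 members that the results below turn on. Ndufaf4 was higher in hepatocyte-like nuclei than in 3 other cell classes and Ndufs3 than in 2 of them, Ndufc2 had the largest ratio between the libraries, and Ndufa11 is a membrane arm subunit with the same motif as Ndufaf4. Each line gives the 250 bases before the RefSeq start on the gene's strand (GRCm38.p6), with matches to NRF1 (GCATGCGC) or GABPA (CCGGAAG) in capitals, on either strand. Ndufc2 had no match.
Ndufaf4, chr4:24897833-24898082, plus strand: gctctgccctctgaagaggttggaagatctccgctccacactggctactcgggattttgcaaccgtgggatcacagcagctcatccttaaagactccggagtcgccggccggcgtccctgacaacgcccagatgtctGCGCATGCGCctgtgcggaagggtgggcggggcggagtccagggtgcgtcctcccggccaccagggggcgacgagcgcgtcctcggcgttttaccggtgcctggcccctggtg
Ndufs3, chr2:90904722-90904971, minus strand: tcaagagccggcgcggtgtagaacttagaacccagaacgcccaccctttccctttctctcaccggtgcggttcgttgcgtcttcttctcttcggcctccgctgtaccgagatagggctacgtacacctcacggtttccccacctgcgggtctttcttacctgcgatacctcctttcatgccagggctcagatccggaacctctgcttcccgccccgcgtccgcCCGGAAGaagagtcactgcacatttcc
Ndufc2, chr7:97399753-97400002, plus strand: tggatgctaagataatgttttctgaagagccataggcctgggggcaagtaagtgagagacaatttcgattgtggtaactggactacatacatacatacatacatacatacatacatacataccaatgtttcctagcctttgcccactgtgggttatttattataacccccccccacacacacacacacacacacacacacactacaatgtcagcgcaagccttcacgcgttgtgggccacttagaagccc
Ndufa11, chr17:56717512-56717761, plus strand: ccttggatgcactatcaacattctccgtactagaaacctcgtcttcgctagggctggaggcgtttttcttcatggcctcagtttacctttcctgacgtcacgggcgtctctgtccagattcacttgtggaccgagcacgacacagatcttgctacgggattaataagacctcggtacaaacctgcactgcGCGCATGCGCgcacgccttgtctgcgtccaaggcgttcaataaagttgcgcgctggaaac
The NRF1 letters read almost the same on both strands, so the overlapping matches of Ndufaf4 and Ndufa11 form a single run of capitals. NRF1 and GABPA are transcription factors known for driving nuclear genes of respiration. Over the window from 250 bases before to 50 after the start, RefSeq promoters were found for 33 of 39 subunits and 7 of 8 assembly factors. The NRF1 letters occurred in 3 subunits and 2 assembly factors, against 6.20% of the 8841 promoters of genes tested in hepatocyte-like nuclei. The GABPA letters occurred in 4 and 2, against 21.2%, and those of the estrogen-related receptors (ERR, AAGGTCA) in 3 and 0, against 4.24%.

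The letters of YY1 (AAGATGGC), another factor tied to mitochondrial genes, occurred in 7 subunits (21.2%) and 1 assembly factor, against 5.64% of promoters of tested genes. All 8 matches lay on the gene's own strand, beginning 11 to 39 bases after the start. Matches with at least 10 bases on each side inside the window are shown to place the letters against their surroundings.
Ndufa3, chr7:3617385-3617412, plus strand: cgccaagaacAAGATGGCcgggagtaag
Ndufa9, chr6:126849098-126849125, minus strand: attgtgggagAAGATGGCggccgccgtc
Ndufc1, chr3:51408916-51408943, minus strand: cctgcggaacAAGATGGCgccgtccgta
Ndufs7, chr10:80249463-80249490, plus strand: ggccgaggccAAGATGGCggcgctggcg
Ndufaf8, chr11:120098934-120098961, plus strand: ggcagggcccAAGATGGCggcgccctcg
In 7 of the 8 genes, the ATG inside these letters was the annotated start codon (GENCODE vM21), with Ndufaf8 the exception. The match therefore coincided with the beginning of the coding sequence in Ndufa3, Ndufa9, Ndufb8, Ndufc1, Ndufs4, Ndufs6 and Ndufs7. Of the subunits with a promoter, the YY1 letters were in 4 of 25 called higher below and in 3 of 8 not called.

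Subunit RNA made up a larger share of the hepatocyte-like sum in the Cox10-/- library, and assembly factor RNA a slightly larger one. The 39 subunits summed to 1116 CPM (interval 1092 to 1141) in wild-type and 1868 CPM (1827 to 1910) in Cox10-/- hepatocyte-like nuclei, a ratio of 1.67 (1.62 to 1.73). The 8 assembly factors summed to 117 CPM (109 to 125) and 149 CPM (137 to 161), a ratio of 1.27 (1.15 to 1.41). A gene was called higher or lower at a ratio of at least 1.5 whose interval left out 1, provided both sums together held 20 UMIs or more. Of 38 subunits tested, 29 were called higher and 0 lower, against 16.2% of 11450 genes called higher and 10.9% called lower. The median log2 ratio was 0.91 over these subunits and -0.03 over all genes tested. Of 7 assembly factors tested, 2 were called higher, 1 lower and 4 neither, with a median log2 ratio of 0.25. The odds of a UMI lying on a subunit rather than an assembly factor were 1.32 times higher (1.18 to 1.47) in the Cox10-/- library.

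Much of the subunit difference lay in the shallow cluster. Without it the subunits stood at 1462 CPM in the Cox10-/- library, 1.31 times the wild-type level (1.27 to 1.36), with 11 of 38 called higher and 0 lower, against 12.7% and 9.5% of genes. They included Ndufa4, Ndufa2, Ndufc2, Ndufs6, Ndufa1, Ndufb10, Ndufs5, Ndufb6, Ndufa11 and Ndufb8, and all 11 were called with the cluster too. The assembly factor ratio was 1.28 without it, and the odds of subunit over assembly factor fell to 1.03 times (0.914 to 1.15), an interval that holds 1. Moving the other way was a restriction of both libraries to nuclei with 5 to 10% mitochondrially encoded UMIs, chosen after seeing the data. It gave 34 of 38 subunits called higher, against 17.8% of genes, and 2 of 7 assembly factors. Depth was not matched there, with 1411 wild-type nuclei at a median of 4299 UMIs and 642 Cox10-/- nuclei at 1238.5. Cluster 5, with a median share of 8.48%, was not left out, so values at 5 to 10% are not independent of that cluster. Over all deposited nuclei of that range, the subunit ratio was 2.70, and 1.61 with a shallow cluster left out.

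The membrane arm carried the larger share of the difference. All 20 of its nuclear-encoded subunits were called higher, at ratios of 1.51 to 3.19, against 16.2% of all genes. Without the shallow cluster 7 of 20 were called higher, against 12.7% of genes, at ratios over the arm of 1.08 to 2.21. Ndufc2, an accessory subunit (chr7:97400003-97407802, GRCm38), stood at 13.5 CPM (96 UMIs) in wild-type and 42.9 CPM (179 UMIs) in Cox10-/- nuclei, a ratio of 3.19 (2.47 to 4.13). Ndufa1, an X-linked subunit needed early in building this arm, stood at 11.7 and 31.4 CPM, 2.70 times higher (2.03 to 3.59). Ndufb10 stood at 17.3 and 42.7 CPM (ratio 2.47, 1.95 to 3.14) and Ndufb7 at 21.9 and 51.6 CPM (2.35, 1.91 to 2.91), the latter at a ratio of 1.44 and not called without the shallow cluster. The intervals of the levels did not overlap between the libraries for any of these 4 genes. They were named for their high ratios, so this is no separate support, and the share over all genes is not given here. Ndufa10 was the closest to the limit, at 34.4 and 51.8 CPM and a ratio of 1.51 (1.25 to 1.82). Ndufb1-ps is annotated as a noncoding RNA despite counting here as a subunit symbol, and its ratio was 1.96 (1.57 to 2.44). Without the shallow cluster neither Ndufa10 nor Ndufb1-ps was called, at ratios of 1.24 and 1.43. Reads of Ndufb4 and Ndufa11 could be shared with processed copies named Ndufb4c and Ndufa11b, so their counts are less certain.

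**Figure D1:**
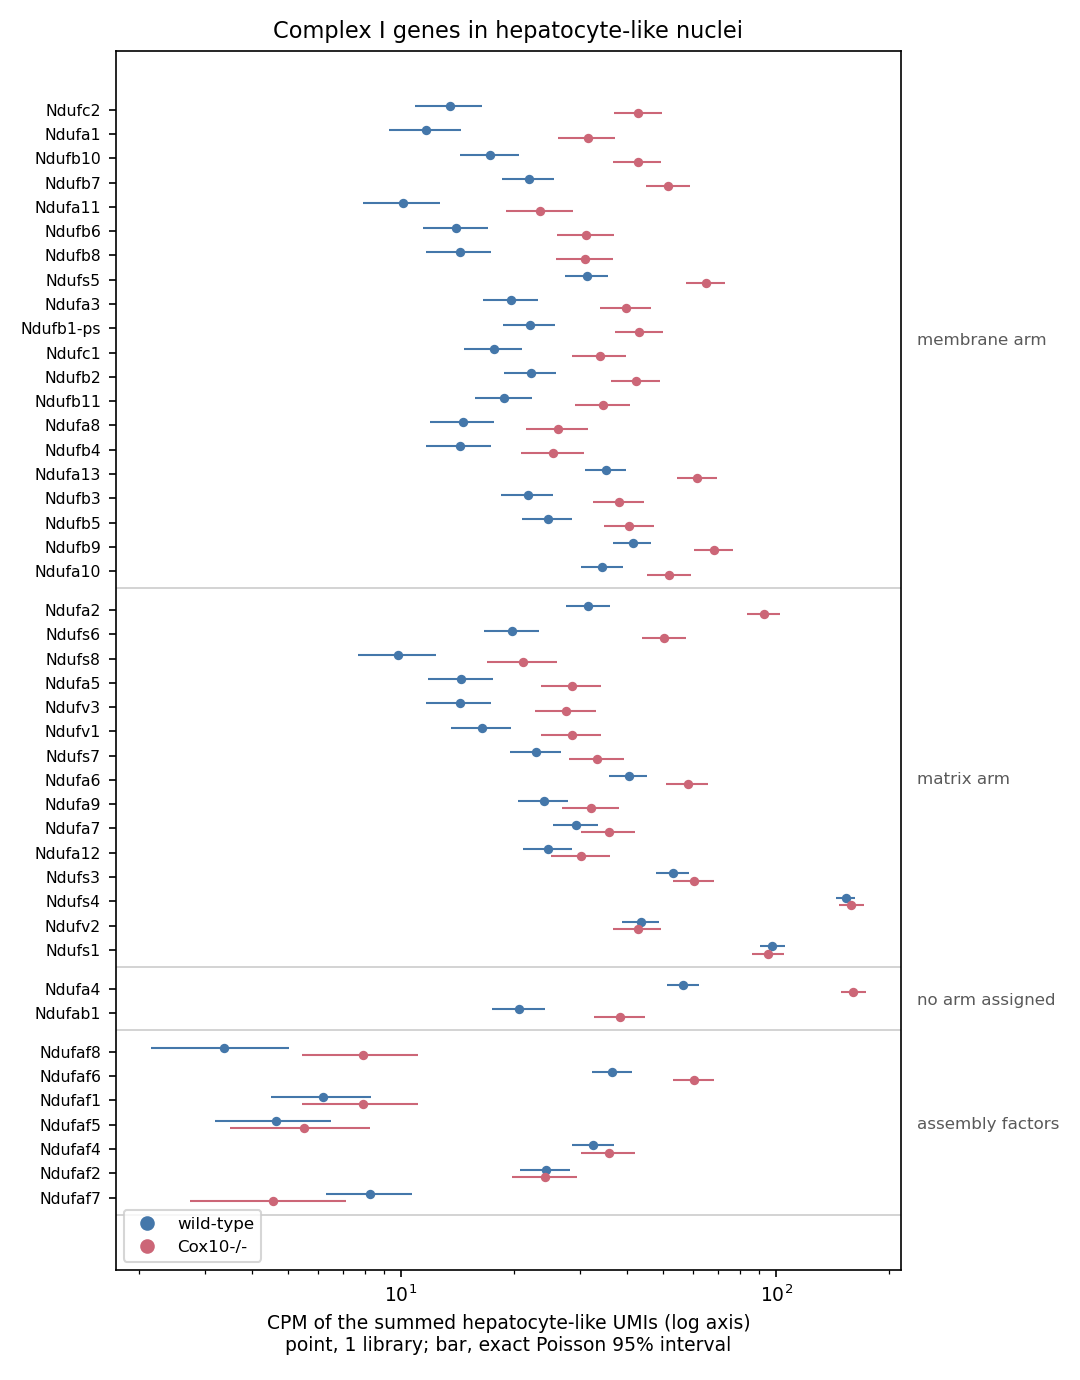
Level of tested complex I genes in hepatocyte-like nuclei, as CPM of the summed UMIs on a log axis, in the wild-type (blue) and Cox10-/- (red) library, with exact Poisson 95% intervals. Within a block genes are ordered by ratio: the blue and red points are apart for all 20 membrane arm genes and lie close together for Ndufs4, Ndufv2, Ndufs1 and Ndufaf2.

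The matrix arm was divided. Of its 16 nuclear-encoded subunits, 7 were called higher and 9 were not, against 16.2% of all genes called higher. Without the shallow cluster 3 of 16 were called higher, against 12.7%. At 5 to 10% mitochondrially encoded UMIs 12 of 16 were called higher, against 17.8%, with a median log2 ratio of 1.18. Ndufa2 stood at 31.6 CPM (225 UMIs) and 92.6 CPM (386 UMIs), 2.93 times higher (2.48 to 3.47), and Ndufs6, which sits by the iron-sulfur clusters, at 19.8 and 50.4 CPM, 2.54 times higher (2.05 to 3.17). Ndufs6 also has a processed copy, Ndufs6b, that could share its reads. At the other end were 4 genes with ratios close to 1. Ndufs4, an accessory subunit whose loss causes Leigh syndrome, stood at 153 CPM (1091 UMIs) and 159 CPM (661 UMIs), a ratio of 1.04 (0.938 to 1.14). Ndufs1 stood at 97.7 and 95.3 CPM (0.974, 0.859 to 1.10), Ndufv2 at 43.5 and 42.7 CPM (0.981, 0.811 to 1.18) and Ndufs3 at 53.1 and 60.5 CPM (1.14, 0.967 to 1.34). These intervals hold 1 and lie within 1.5-fold of it in either direction. The ratios of Ndufs3 and Ndufs4 depended on the processing, however. Ndufs3 was at 1.63 when nuclei were thinned to 1000 UMIs and 1.47 (1.16 to 1.86) at 5 to 10% mitochondrially encoded UMIs. In that range Ndufs4 had a ratio of 0.772 (0.643 to 0.921), not called but with an interval that leaves out 1. Ndufs1 and Ndufv2 were at 1.15 and 1.22 there, with intervals that hold 1. The odds of a membrane arm over a matrix arm UMI were 1.43 times higher in the Cox10-/- library (1.34 to 1.53) and 1.20 times (1.11 to 1.29) without the shallow cluster.

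The 7 core subunits encoded in the nucleus carry the flavin and iron-sulfur clusters or shape the ubiquinone site. Those called higher included Ndufs8, at 9.83 and 21.1 CPM (ratio 2.15, 1.55 to 2.98), and Ndufv1, the flavin-binding subunit, at 16.4 and 28.6 CPM (1.74, 1.33 to 2.26). Ndufs7, at 22.9 and 33.4 CPM, had a ratio of 1.46 (1.15 to 1.84), below the limit, and passed it at 5 to 10% mitochondrially encoded UMIs, at 2.30 (1.69 to 3.09). Without the shallow cluster neither Ndufs8 nor Ndufv1 was called, at ratios of 1.49 and 1.33. Summed over the core, the ratio was 1.25 (1.16 to 1.34). It was 1.11 (1.03 to 1.19) without the shallow cluster and 1.74 (1.58 to 1.92) at 5 to 10% mitochondrially encoded UMIs.

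Ndufa4, now counted as a subunit of complex IV despite its name, stood at 56.5 CPM (402 UMIs) and 161 CPM (669 UMIs), a ratio of 2.84 (2.51 to 3.23). Its ratio without the shallow cluster was 2.10 (1.83 to 2.41). Ndufab1, the mitochondrial acyl carrier protein, stood at 20.6 and 38.4 CPM (1.86, 1.48 to 2.34), with a ratio of 1.47 and no call without that cluster, and a copy named Ndufab1-ps could share its reads. Ndufa4l2, a paralogue of Ndufa4 known as a hypoxia target, had 8 and 1 UMIs and was not tested.

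The assembly factors did not move together. Ndufaf6, needed early for the membrane arm (chr4:11051045-11076205), stood at 36.5 CPM (260 UMIs) in wild-type and 60.2 CPM (251 UMIs) in Cox10-/- nuclei, a ratio of 1.65 (1.38 to 1.97) that was 1.78 (1.49 to 2.14) without the shallow cluster. At 5 to 10% mitochondrially encoded UMIs it was 1.28 (0.935 to 1.72) and not called. Ndufaf8, the partner of Ndufaf5, had 24 and 33 UMIs, 3.37 and 7.92 CPM, a ratio of 2.35 (1.35 to 4.15) that was 1.56 (0.806 to 2.96) without that cluster. Ndufaf7, an arginine methyltransferase (chr17:78937136-78948052), had 59 and 19 UMIs, 8.29 and 4.56 CPM, and was 1.82-fold lower (1.07 to 3.23). This call was lost at 5 to 10% mitochondrially encoded UMIs, where 57 and 9 UMIs gave a ratio of 0.848 (0.369 to 1.73). The level intervals of Ndufaf6 and Ndufaf8 did not overlap between libraries, and those of Ndufaf7 did. These intervals rest on the same counts as the calls, and the share over all genes is not given here.

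The other assembly factors were not called. Ndufaf4, which acts on the early ubiquinone module, stood at 32.6 and 35.75 CPM (1.10, 0.887 to 1.35), and Ndufaf2, which holds the place of a late matrix arm subunit, at 24.3 and 24.2 CPM (0.997, 0.772 to 1.28). Ndufaf1, a chaperone of membrane arm intermediates, had 44 and 33 UMIs (1.28, 0.790 to 2.06), and Ndufaf5, which hydroxylates Ndufs7, had 33 and 23 UMIs (1.19, 0.668 to 2.09). The intervals of Ndufaf1 and Ndufaf5 hold both 1 and 1.5, so a difference of that size was not detectable at this depth. At 5 to 10% mitochondrially encoded UMIs, Ndufaf1 was called higher, with 37 and 16 UMIs and a ratio of 2.32 (1.21 to 4.28). Ndufaf3 had 7 and 11 UMIs and was not tested.

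Other genes of the pathway gave the following counts. Of 10 assembly factors without an Nduf symbol, 1 was called higher, 2 lower and 7 neither, against 16.2% of all genes called higher and 10.9% lower. Nubpl, which delivers iron-sulfur clusters to complex I, had 51.5 CPM in wild-type and 29.99 CPM in Cox10-/- nuclei and was 1.72-fold lower (1.40 to 2.12). Timmdc1, a membrane arm chaperone, had 46.8 and 30.7 CPM and was 1.52-fold lower (1.24 to 1.88). Without the shallow cluster 0 were called higher and 1 lower, which was Nubpl, against 12.7% and 9.5% of all genes. Of the 7 mitochondrially encoded subunits 5 were called lower, and 7 of 7 without the shallow cluster. The difference was largest for mt-Nd3, with 1920 CPM in wild-type and 606 CPM in Cox10-/- nuclei, a 3.17-fold lower level (3.04 to 3.31). The limit on mitochondrially encoded UMIs per nucleus acts on these genes. The ratio of their sum was 0.590 (0.583 to 0.597), and 0.601 (0.596 to 0.606) over all deposited nuclei, without the limit. Where both libraries were held to 5 to 10% it was 1.03 (1.018 to 1.05). That range bounds a total that includes these genes, so it holds their summed ratio near 1. In it 3 of 7 were called lower and 3 of 7 were above 1, among them mt-Nd1 at 1.32. There mt-Nd3 was still called lower, at a ratio of 0.545 (0.514 to 0.577). Nuclear-encoded subunits of complexes II to V were called higher in 29 of 37, with a median log2 ratio of 0.96, and in 15 of 37 without the shallow cluster, with a median of 0.49. Cytosolic ribosomal protein genes, whose RNA is mostly cytoplasmic, were called higher in 76 of 79, and their sums were 2123 and 5566 CPM, a ratio of 2.62. Without the shallow cluster it was 66 of 79 and a ratio of 1.89. Cox10 itself had 254 and 182 UMIs, 35.7 and 43.7 CPM, and a ratio of 1.22 (1.01 to 1.49) in the library labelled Cox10-/-. Where on the gene these 3' reads fell was not analysed here, so they do not check the deletion.

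By cluster, subunits and assembly factors followed different courses. Subunits stood at 1020 to 1220 CPM in the 3 wild-type clusters, at 1246 CPM in cluster 8, at 1620 CPM in cluster 4 and at 4569 CPM (4391 to 4752) in the shallow cluster 5. Assembly factors stood at 112 to 121 CPM in the wild-type clusters and at 148, 153 and 145 CPM in clusters 8, 4 and 5. The subunit intervals of clusters 4, 5 and 8 were apart from each other, while their assembly factor intervals overlapped. Ribosomal protein RNA stood at 1953 to 2278 CPM in the wild-type clusters, and at 3314, 4483 and 15947 CPM in clusters 8, 4 and 5. Its part in the subunit difference was not tested.

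**Figure D2:**
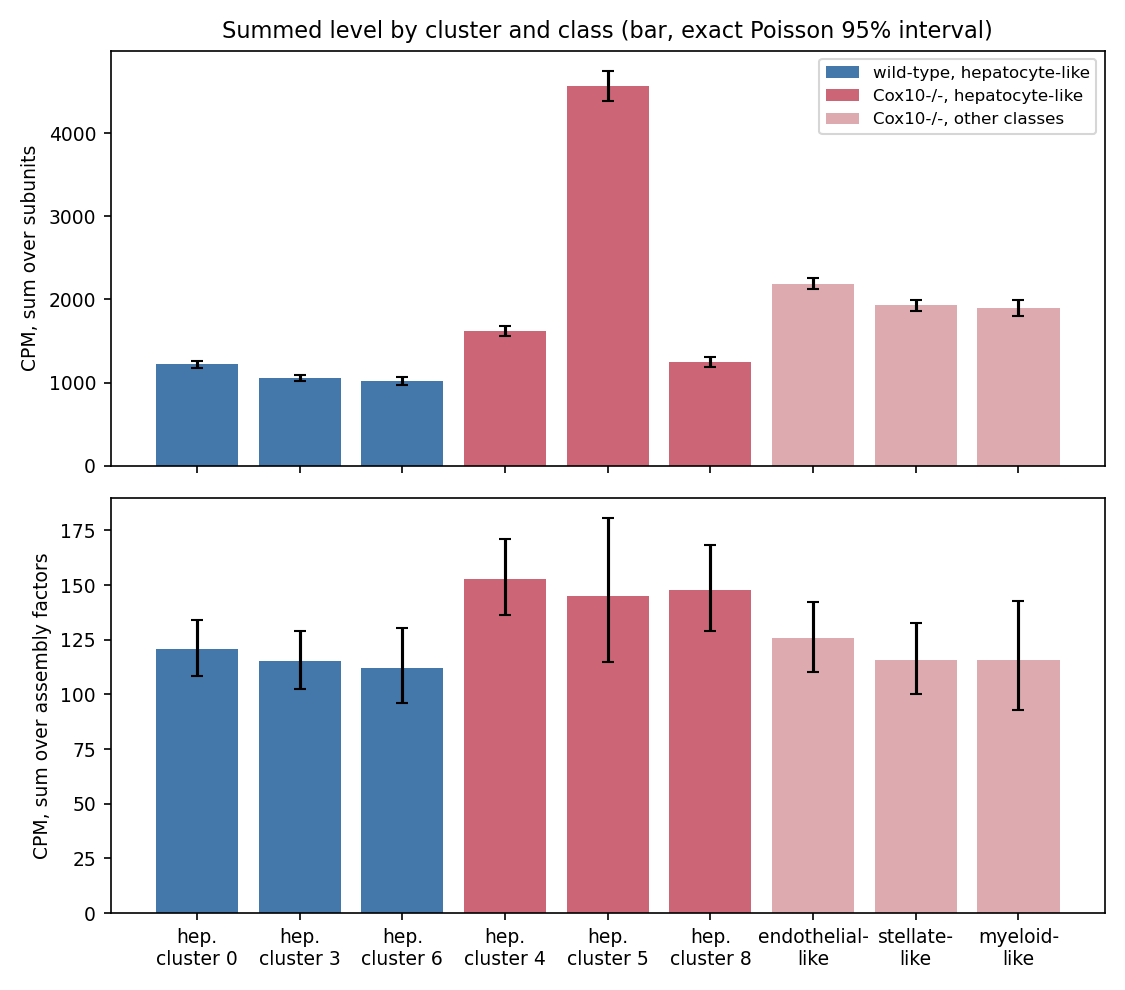
Summed CPM of subunits (top) and assembly factors (bottom) in hepatocyte-like clusters of the wild-type (blue) and Cox10-/- (red) library with at least 100 nuclei, and in other cell classes of the Cox10-/- library (pale), with exact Poisson 95% intervals. Subunits reach 4569 CPM in cluster 5, where assembly factors stand at 145 CPM.

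Single members did not all follow the sum of their group. Ndufa2 stood at 30.7 to 32.5 CPM in the wild-type clusters, at 41.9 and 69.7 CPM in clusters 8 and 4 and at 327 CPM in cluster 5. Ndufa4 stood at 43.7 to 69.8 CPM, then at 91.1, 135 and 441 CPM. Ndufs4 went the other way, at 142 to 164 CPM in wild-type clusters, 172 and 164 CPM in clusters 8 and 4 and 97.3 CPM in cluster 5. Ndufaf6 did so too, with 31.5 to 44.4 CPM in wild-type clusters, 67.8 and 64.3 CPM in clusters 8 and 4 and 27.5 CPM (15 UMIs) in cluster 5. Outside the shallow cluster, the Ndufaf6 level was therefore higher in both large Cox10-/- clusters than in any wild-type cluster. The intervals of clusters 8 (55.3 to 82.3) and 4 (53.8 to 76.2) overlapped that of wild-type cluster 6 (34.5 to 56.3), however. Ndufaf8 stood at 2.30 to 4.07 CPM in wild-type clusters and at 25.7 CPM (14 UMIs) in cluster 5. Ndufaf1 stood at 5.75 to 6.53 CPM and at 20.2 CPM (11 UMIs). Ndufaf4, at 22.2 to 37.3 CPM and then 31.2 CPM, and Ndufaf2, at 23.8 to 24.8 CPM and then 20.2 CPM, did not rise there.

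The share of mitochondrially encoded UMIs per nucleus moved with the subunits. All deposited hepatocyte-like nuclei, including those above 10%, were sorted by that share, with levels given as CPM of the genes not encoded in mitochondria. In the wild-type library, subunits stood at 1057 CPM in nuclei with 0 to 5%, 1221 with 5 to 10%, 1482 with 10 to 15% and 1790 with 15 to 20%, and no neighbouring intervals overlapped. Assembly factors stood at 134, 125, 135 and 132 CPM, with overlapping intervals throughout. In the Cox10-/- library, subunits stood at 1422, 3297, 4339 and 2838 CPM and assembly factors at 156, 154, 160 and 155. At matched shares the Cox10-/- over wild-type ratio of subunits was 1.34, 2.70, 2.93 and 1.59, and that of assembly factors 1.17, 1.24, 1.19 and 1.17, with the assembly factor interval beyond 1 in the 5 to 10% range alone (1.04 to 1.47). The shares were matched but the depth was not: the median UMIs of wild-type and Cox10-/- nuclei were 7701 and 5097, 4299 and 1239, 2796 and 1223, and 2096.5 and 1921. Ribosomal protein RNA moved with the subunits, at ratios of 2.32, 4.70, 4.38 and 1.99, and its part was not tested.

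A shallow cluster of 964 Cox10-/- nuclei, with a median of 1177 UMIs, was then left out of these bins, a choice made after seeing the data. The subunit ratios became 1.33 (1.23 to 1.44), 1.61 (1.51 to 1.71), 1.34 (1.20 to 1.49) and 1.08 (0.977 to 1.19), so the interval at 15 to 20% held 1. Only 46 and 51 Cox10-/- nuclei remained in the upper bins. Assembly factor ratios were 1.17, 1.25, 1.19 and 1.26, all with intervals that hold 1.

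**Figure D3:**
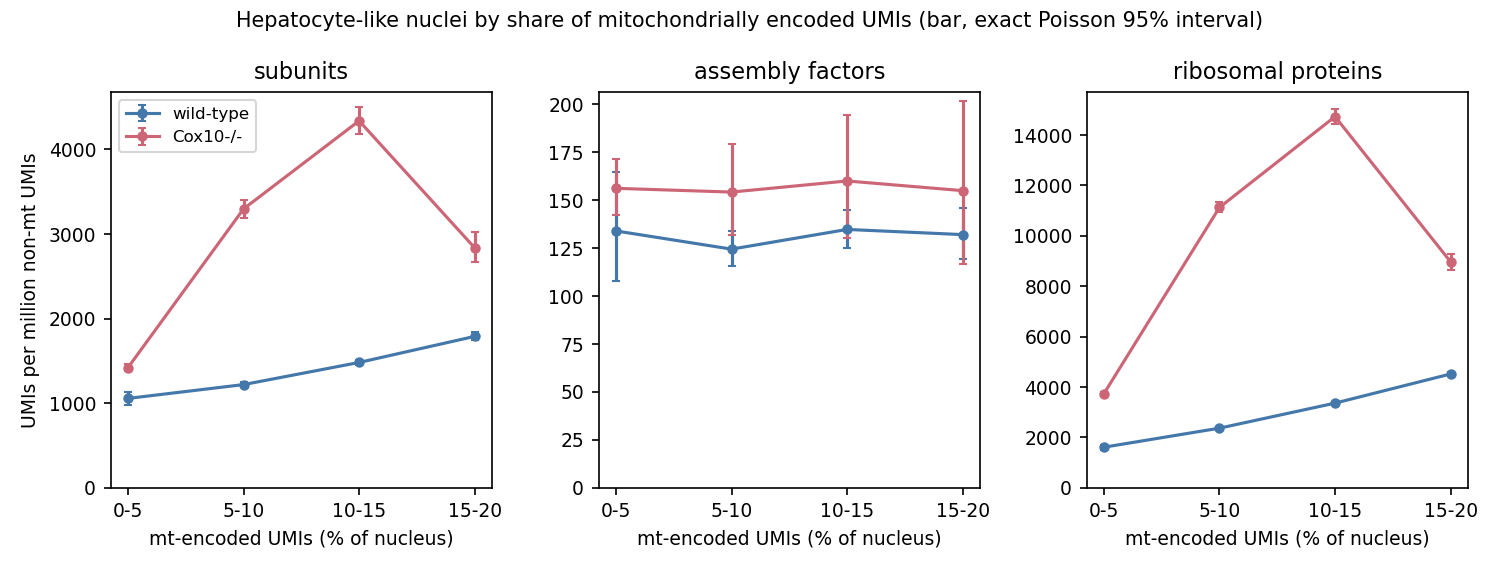
Subunits, assembly factors and ribosomal proteins in all deposited hepatocyte-like nuclei, as CPM of genes not encoded in mitochondria, by share of mitochondrially encoded UMIs per nucleus. Wild-type subunits go from 1057 to 1790 CPM across the bins, while wild-type assembly factors stay between 125 and 135.

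This division could be followed within the wild-type library alone. In nuclei with 15 to 20% mitochondrially encoded UMIs against those with 5 to 10%, a contrast chosen after these values were seen, 24 of 38 subunits were called higher and 0 lower. The share of all 10980 genes tested was 6.28% higher and 0.993% lower. The membrane arm had 18 of 20 called higher, the matrix arm 5 of 16 and the assembly factors 1 of 7, which was Ndufaf8 (23 and 25 UMIs, ratio 2.13, 1.16 to 3.93). Ndufa2 stood at 35.3 and 76.5 CPM (2.17, 1.79 to 2.63) and Ndufa13, also known as GRIM-19, at 38.7 and 81.5 (2.11, 1.75 to 2.54). Ndufs4 stood at 168 and 157 CPM (0.935, 0.836 to 1.04), Ndufv2 at 44.8 and 44.6 and Ndufaf6 at 38.8 and 34.6 (0.891, 0.6996 to 1.13).

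Gene length moved with the ratio between libraries as well. Across the 45 tested members, Spearman's rho between gene span (GENCODE vM21) and the log ratio was -0.60 and Pearson's r with log span -0.59, and across 11338 genes rho was -0.23. The points share 2 libraries and are genes, not replicates. Among members shorter than 10 kb, 23 of 27 were called higher, against 33.6% of all genes of that span. Between 10 and 30 kb it was 7 of 13 against 13.9%, between 30 and 100 kb 1 of 3 against 7.73%, and above 100 kb 0 of 2 (Ndufs4 and Ndufaf2) against 12.0%. Without the shallow cluster it was 10 of 27 against 23.7%, 2 of 13 against 10.5%, 0 of 3 against 7.43% and 0 of 2 against 12.1%. The median span was 7.08 kb for the membrane arm, 10.7 kb for the matrix arm and 9.15 kb for the assembly factors. Within members shorter than 10 kb, 16 of 16 membrane arm and 5 of 7 matrix arm subunits were called higher, and above 10 kb 4 of 4 and 2 of 9.

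**Figure D4:**
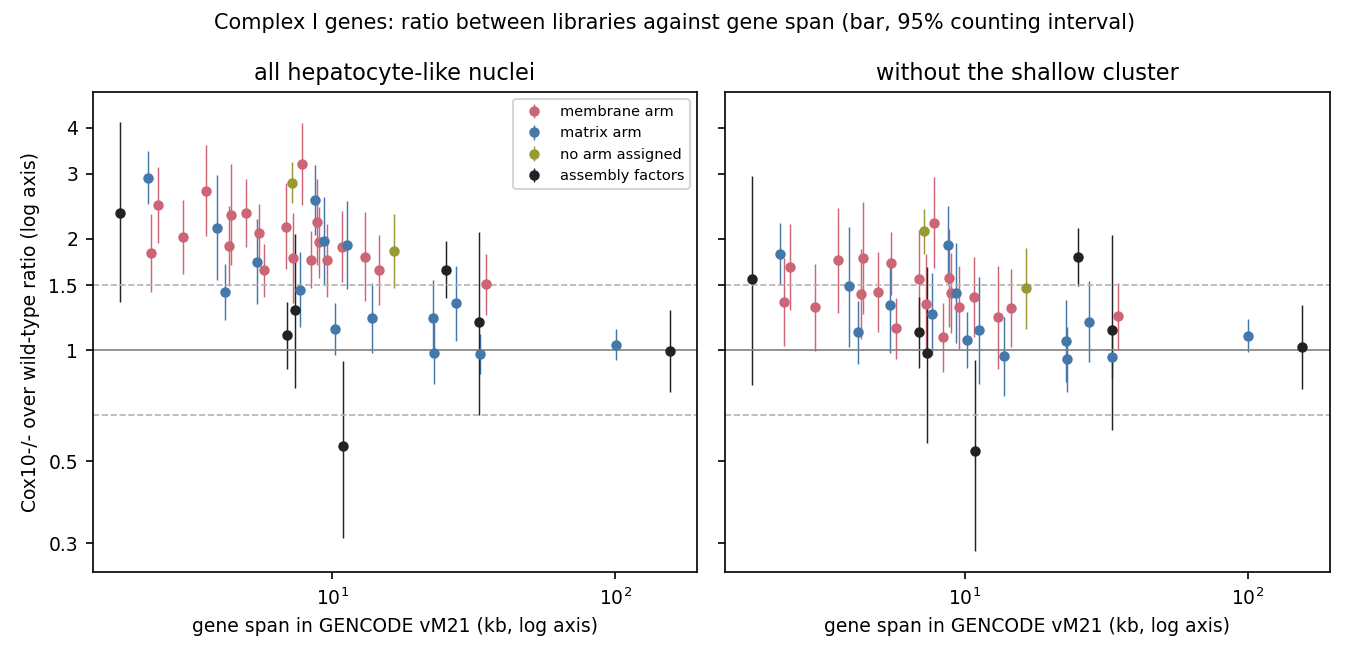
Cox10-/- over wild-type ratio of tested members against gene span, both on log axes, with all hepatocyte-like nuclei (left) and without the shallow cluster (right). Dashed lines mark 1.5-fold. Members shorter than 10 kb lie mostly above 1.5 on the left and closer to 1 on the right.

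In the Cox10-/- library, cell classes other than hepatocytes could be compared with the hepatocyte-like nuclei of the same liver, with 831 endothelial-like, 617 stellate-like and 268 myeloid-like nuclei. Assembly factors were lower in all 3 classes, at 126, 116 and 116 CPM against 149 CPM, or 1.18-fold (1.021 to 1.38), 1.29-fold (1.09 to 1.52) and 1.28-fold (1.025 to 1.63) lower. Subunits stood at 2191, 1928 and 1897 CPM against 1868 CPM, ratios of 1.17 (1.13 to 1.22), 1.03 (0.991 to 1.07) and 1.015 (0.959 to 1.07). Leaving the shallow cluster out of the hepatocyte-like sum gave 1.498, 1.32 and 1.30, while a mean over nuclei turned the direction, at 0.812, 0.719 and 0.754. Assembly factors made up 7.37% of Nduf UMIs in hepatocyte-like nuclei (6.83 to 7.95%, Clopper-Pearson) or 9.27% without that cluster, and 5.42%, 5.66% and 5.75% in the 3 classes. In wild-type hepatocyte-like nuclei the share was 9.48% (8.87 to 10.1%). The 3 comparisons share the hepatocyte-like sum, so they are not independent of each other. Hepatocyte marker RNA stood at 26782, 22648 and 23201 CPM in these classes against 42651 CPM in hepatocyte-like nuclei, with all 14 markers detected. The myeloid-like sum also held stellate markers at 812 CPM and endothelial markers at 667 CPM, beside myeloid markers at 2759 CPM. In hepatocyte-like nuclei the stellate and endothelial markers stood at 193 and 64.1 CPM. The part of marker RNA from other cell types in the member levels was not tested.

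Single assembly factors differed more than their sum. Ndufaf6 stood at 60.2 CPM in hepatocyte-like nuclei and at 19.7, 22.1 and 23.96 CPM in the endothelial-, stellate- and myeloid-like nuclei, 3.06-fold (2.18 to 4.41), 2.73-fold (1.93 to 3.94) and 2.51-fold (1.56 to 4.31) lower. Ndufaf4 stood at 35.75 CPM and at 16.6, 13.4 and 19.97 CPM, 2.15-fold, 2.67-fold and 1.79-fold lower. Ndufaf7 went the other way, from 4.56 CPM (19 UMIs) to 16.6 CPM (33 UMIs) and 13.4 CPM (23 UMIs) in endothelial- and stellate-like nuclei, ratios of 3.65 (2.02 to 6.80) and 2.93 (1.53 to 5.69). Ndufaf5 stood at 5.52 CPM against 13.6 and 13.4 CPM, ratios of 2.47 (1.36 to 4.50) and 2.42 (1.30 to 4.52). In myeloid-like nuclei Ndufaf7 (7 UMIs) and Ndufaf5 (8 UMIs) had ratios of 2.04 and 1.93 with intervals that hold 1. Thus 2 of 7 assembly factors were called higher and 2 lower in endothelial-like and in stellate-like nuclei, and 0 and 2 in myeloid-like nuclei. The shares of all genes called higher were 26.9%, 22.3% and 25.9% in the endothelial-, stellate- and myeloid-like comparison, and those called lower 22.8%, 25.7% and 19.7%.

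**Figure D5:**
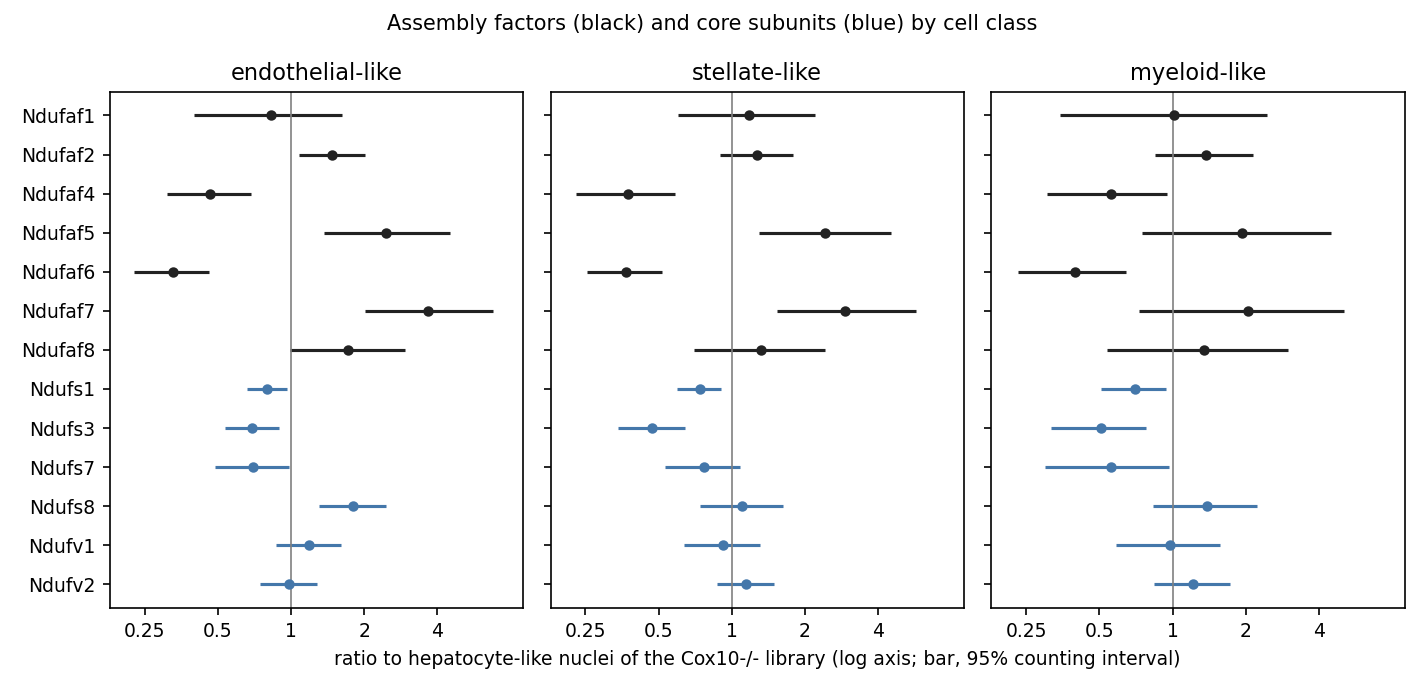
Ratio of 7 assembly factors (black) and core subunits (blue) in endothelial-, stellate- and myeloid-like nuclei to hepatocyte-like nuclei of the Cox10-/- library, on a log axis with 95% counting intervals. Ndufaf4, Ndufaf6 and Ndufs3 lie left of 1 in each panel, and Ndufaf7 and Ndufaf5 right of it in the endothelial and stellate panels with intervals that leave out 1.

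Few subunits were called between cell classes. In endothelial-like nuclei 2 of 38 were called higher, Ndufs8 at 37.8 against 21.1 CPM (1.79, 1.30 to 2.47, and 0.956 in nuclei with 5 to 10% mitochondrially encoded UMIs) and Ndufc1 at 54.0 against 33.8 CPM (1.60, 1.23 to 2.07), and 0 lower. In stellate-like nuclei 1 was higher, Ndufc1 at 51.1 CPM (1.51, 1.14 to 1.99, and 0.752 at 5 to 10%), and 1 lower, Ndufs3 at 28.5 against 60.5 CPM, 2.12-fold (1.56 to 2.95). In myeloid-like nuclei 0 were higher and 2 lower, Ndufs3 at 30.6 CPM, 1.97-fold (1.29 to 3.17), and Ndufs7 at 18.6 against 33.4 CPM, 1.79-fold (1.03 to 3.36), the latter not called without the shallow cluster (1.54-fold). The highest ratios there were those of Ndufa2 (1.47, 1.17 to 1.83, and 0.705 at 5 to 10%) and Ndufa13 (1.45, 1.09 to 1.90, and 0.749 at 5 to 10%), neither of them called. Ndufs1 was below 1 in each class, at 76.2, 70.3 and 66.6 against 95.3 CPM. Without the shallow cluster 24, 18 and 12 of 38 subunits were called higher, against 30.7%, 24.8% and 27.6% of genes, and 0, 1 and 1 lower, against 23.6%, 26.5% and 20.9%. Ndufa4l2 had 7 UMIs in stellate-like nuclei and 0, 1 and 1 in endothelial-like, myeloid-like and hepatocyte-like nuclei, too few to test. A count of 0 allows up to 3 UMIs at a 1-sided 95% limit, while the intervals given here are 2-sided.

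A library difference in subunits was also seen in nuclei named for other cell classes. The wild-type library had few such nuclei below 10% mitochondrially encoded UMIs, so all deposited nuclei were used, with 47 wild-type and 1443 Cox10-/- endothelial-like nuclei, 33 and 750 stellate-like and 41 and 656 myeloid-like. Subunits stood at 1377 and 2283 CPM in endothelial-like nuclei (1.66, 1.39 to 1.99), at 1376 and 1933 CPM in stellate-like nuclei (1.40, 1.18 to 1.68) and at 1118 and 1975 CPM in myeloid-like nuclei (1.77, 1.499 to 2.10). Over the same nuclei the hepatocyte-like ratio was 1.72 (1.68 to 1.76). Hepatocyte marker RNA stood at 27304, 23280 and 24429 CPM in the 3 Cox10-/- classes, against 45242 CPM in hepatocyte-like nuclei. In the wild-type classes it stood at 19486, 25859 and 23093 CPM, against 34120 CPM. Median mitochondrially encoded shares were 17.7%, 13.7% and 15.7% in the wild-type and 9.33%, 7.02% and 12.2% in the Cox10-/- classes. Ribosomal protein RNA had ratios of 1.79, 2.32 and 2.34. Their part was not tested. In 20 and 135 lymphoid-like nuclei the subunit ratio was 1.98 (1.58 to 2.51) and in 10 and 193 cholangiocyte-like nuclei 1.13 (0.840 to 1.55). These classes were not alike between the libraries. Lymphoid markers stood at 1336 CPM in wild-type and 4533 CPM in Cox10-/- nuclei, and cholangiocyte markers at 5708 and 2938 CPM. The 23 Cox10-/- cholangiocyte-like nuclei found under the 10% limit held cholangiocyte markers at 9501 CPM. The assembly factor ratio was 1.27 (1.17 to 1.38) in hepatocyte-like, 0.826 (0.486 to 1.52) in endothelial-like and 1.22 (0.655 to 2.58) in stellate-like nuclei, where the wild-type sums held 14 and 10 UMIs.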

How the data were processed

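The authors deposited raw counts, UMIs per gene and nucleus, for 2 single-nucleus libraries. Per the submitters' processing notes they used Cell Ranger 7.0 and mm10. Annotation, nucleus filter and the use of intronic reads were not given in the sources used here. Such choices bear on intron-rich long genes. The members and gene lists were chosen with earlier results of these data known.

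Nuclei entered with 500 UMIs and 300 genes or more and a mitochondrially encoded share of no more than 10%. Scrublet marked 0 and 14 nuclei, too few to have worked, and these were removed. Leiden clusters (scanpy 1.11.5, resolution 1.0, no integration of libraries) were named from marker lists, with thresholds set after seeing the data: the mean log2 excess of the markers reached 2 for 1 class and stayed under 1 for the others, with 3 detected markers and a leading gene at 8-fold, or for hepatocytes an excess above 0. Other clusters stayed unnamed, with 26 wild-type and 179 Cox10-/- nuclei. UMIs were summed per class and library and divided by the sum. Intervals at 95% are exact Poisson (levels), Clopper-Pearson (shares) and conditional binomial (ratios and odds). No test of groups was run. The call rule was tested on simulated data. GENCODE vM21 spans matched 31490 of 32286 symbols. Named genes were the 8 subunits with the highest and 4 with the lowest ratio by the interval end nearest 1, the 7 core subunits, all assembly factors, Ndufa4, Ndufa4l2, Ndufab1, Cox10, and the 3 highest and 3 lowest members per cell class; other names were chosen after their values were seen. Of the genes this rule picks, 1 is not reported here and is left out of plots of single genes, but it stays in sums and counts. Alternatives covered filters, TMM (edgeR 4.0.16) and DESeq2 1.42.0 scaling, thinning, doublets and cluster resolution.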

Additional observations from a re-analysis of the deposited data

Results flagged for a closer look

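Over all deposited nuclei, the 2 libraries differed in opposite directions for the assembly factor sum in hepatocyte-like and myeloid-like nuclei. The Cox10-/- over wild-type ratio was 1.27 (95% counting interval 1.17 to 1.38) in hepatocyte-like nuclei, with 1955 wild-type and 776 Cox10-/- UMIs. In myeloid-like nuclei it was 0.511 (0.334 to 0.813), with 25 UMIs from 41 wild-type nuclei and 165 UMIs from 656 Cox10-/- nuclei. The difference between the cell classes was not tested, since each class had 1 library per group.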

How the results depend on the processing

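No paired analysis was possible because each group had 1 library and no replicate. The assembly factor ratio in hepatocyte-like nuclei stayed between 1.23 and 1.32 under all 12 settings, and Ndufaf4, Ndufaf6 and Ndufs3 stayed below 1 and Ndufaf5 and Ndufaf7 above 1 in each cell class comparison that named them. The subunit ratio in hepatocyte-like nuclei stayed above 1 but moved, to 1.33 with at least 1000 genes per nucleus, 1.62 with mitochondrially encoded genes out of the library size, 2.46 as a mean over nuclei, 2.39 when thinned to 1000 UMIs, 1.31 without the shallow cluster, 2.72 at 5 to 10% mitochondrially encoded UMIs (a setting added after seeing the data) and 1.61 without Ndufa4, Ndufa4l2 and Ndufab1. The subunit over assembly factor odds ratio was 1.03 with at least 1000 genes and 1.03 without the shallow cluster, 1.95 as a mean over nuclei, 1.81 thinned and 2.22 at 5 to 10%. The count of subunits called higher was 12 with at least 1000 genes, 11 without the shallow cluster and 14 at a ratio of 2, and 34 as a mean over nuclei, when thinned and at 5 to 10%. The count of assembly factors called higher was 1 with at least 1000 genes, when thinned, without the shallow cluster, with at least 100 UMIs and at a ratio of 2.

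For the endothelial-, stellate- and myeloid-like over hepatocyte-like subunit ratios, all deposited nuclei gave 1.05, 0.892 and 0.912, at least 1000 genes 1.45, 1.28 and 1.22, TMM 1.09, 1.09 and 0.930, DESeq2 1.09, 1.08 and 0.941, the mean over nuclei 0.812, 0.719 and 0.754, thinning 0.852, 0.727 and 0.747, leaving out the shallow cluster 1.5, 1.32 and 1.30, and 5 to 10% mitochondrially encoded UMIs 0.732, 0.669 and 0.630. Without the highest 4% of doublet scores the myeloid-like ratio was 1.08. These 3 ratios thus changed direction with the processing. The same settings turned single genes: as a mean over nuclei Cox10 was 0.899 between libraries, Ndufc1 0.941 in stellate-like and Ndufa13 and Ndufa2 0.898 and 0.923 in myeloid-like nuclei. Thinned, Cox10 was 0.821 and Ndufa2 0.926. At 5 to 10%, Cox10 was 0.923, Ndufs8 0.956 in endothelial-like, Ndufc1 0.752 in stellate-like and Ndufa13 and Ndufa2 0.749 and 0.705 in myeloid-like nuclei. The shallow cluster weighs more in a mean over nuclei and in thinned sums, since its nuclei have fewer UMIs; otherwise the cause was not tested. Thinning left out 1 wild-type and 44 Cox10-/- hepatocyte-like nuclei under 1000 UMIs.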
